A study of Mus with 8 samples.

Results

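The genes described here carry out MHC class I antigen presentation and build the immunoproteasome. They are 10 genes, taken by symbol from a count table of 31269 gene symbols, and all 10 passed the filter on low counts. H2-K1 and H2-D1 encode the classical class I heavy chains and B2m the light chain. Tap1, Tap2 and Tapbp encode the peptide transporter and its bridge to the class I molecule. Psmb8, Psmb9 and Psmb10 encode the inducible catalytic subunits of the proteasome, and Nlrc5 encodes a transcriptional activator of class I genes.

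Uterine RNA was sequenced from mice at day 6 of pseudopregnancy, the progesterone-dominated state after a sterile mating. Of the 8 libraries, 4 carried the label myometrial PGR deficiency, meaning a lack of the progesterone receptor in the smooth muscle wall, and 4 were labelled control. All libraries shared the stage and the tissue label. The labels give no age, strain, allele or Cre driver, and they place the tissue beside implantation sites, which a pseudopregnant uterus would not hold. They do not say that each library is a separate animal, so p-values measure only the spread between these libraries. Totals ran from 70296369 to 72364750 counts.

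Pgr, the targeted gene, had 176.9 ± 12.1 CPM in the libraries labelled deficient and 156.5 ± 22.8 CPM in the controls (SD, n = 4 each). CPM are counts scaled to a common library size, after TMM normalization. The ranges were 159.7 to 186.6 CPM and, in the controls, 131.3 to 180.0 CPM, and the log2 difference was 0.18 ± 0.11 (SE; edgeR adjusted p = 0.338). The groups overlapped, so whole-tissue Pgr counts do not separate them, and "labelled deficient" is used throughout because each direction below rests on the labels. Markers of uterine tissue were abundant in all libraries. Myh11, smooth muscle myosin, lay between 1410 and 1622 CPM in the libraries labelled deficient and between 1447 and 2272 CPM in the controls.

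Class I molecules show peptides from inside the cell to CD8 T cells and to receptors of natural killer cells. Proteasomes cut proteins into peptides, the TAP transporter moves these into the endoplasmic reticulum, and tapasin holds the empty class I molecule beside the transporter until a peptide is bound. Interferon gamma is known to replace the constitutive catalytic subunits of the proteasome with the inducible ones and to raise the whole pathway, in part through IRF1 and NLRC5. In the uterus, natural killer cells are abundant around implantation, and their Ly49 receptors read class I molecules.

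By RefSeq positions on GRCm38.p6, the assembly that mm10 names, 7 of the 10 genes lie on chromosome 17. Psmb9 (34182030 to 34187330), Tap1 (34187556 to 34197225), Psmb8 (34198195 to 34201454) and Tap2 (34204479 to 34216321) stand side by side, with gaps of 225, 969 and 3024 bases. H2-K1 lies at 33996012 to 34000619, Tapbp at 33919478 to 33929290 and H2-D1 at 35263094 to 35267497. B2m is on chromosome 2 (122147687 to 122153082), while Nlrc5 (94434335 to 94527272) and Psmb10 (105935728 to 105938392) are on chromosome 8. The class I heavy chains are close copies of one another and differ between mouse strains, so the counting could split or lose their reads, and H2-K1 and H2-D1 values are uncertain to that extent. The strand setting of the counting was not stated. In the RefSeq table B2m overlaps Patl2, which averaged 6.88 counts per library, and Nlrc5 overlaps 9330175E14Rik, which averaged 281.1 counts, so reads there may be shared between genes.

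All 10 genes had positive log2 differences, deficient over control, but none passed the test over all genes. Their median was 0.44, against 0.01 over the 17629 genes tested, of which 52% were positive. With edgeR's quasi-likelihood test and Benjamini-Hochberg adjustment, 0 of the 10 were called, with adjusted p from 0.111 to 0.378, as 0% of all genes were called. At an unadjusted p under 0.05, 6 of the 10 were higher, where 13% of all genes were. DESeq2 called 5 of the 10 higher (Nlrc5, Psmb10, Psmb8, Tapbp and Psmb9), where 7.43% of all genes were called higher, or 14.2% in either direction. Limma-voom called 0 of the 10 and 0.0113% of all genes. The DESeq2 calls depend on single libraries, as given below. In the wider lists below, edgeR called 0 throughout. DESeq2 called higher 1 of 15 other heavy chains, 1 of 8 genes of loading and trimming and 3 of 12 of the proteasome core. It called higher 1 of 4 activators, 2 of 16 regulators and 2 of 10 genes of interferon signalling. It also called 10 of 16 type I and 2 of 12 gamma interferon-stimulated genes, but 0 of 3 constitutive subunits and 0 of 8 class II genes. Each count stands beside the 7.43% of all genes called higher. Such counts describe genes that share regulators and libraries and are not independent of each other.

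**Figure D1:**
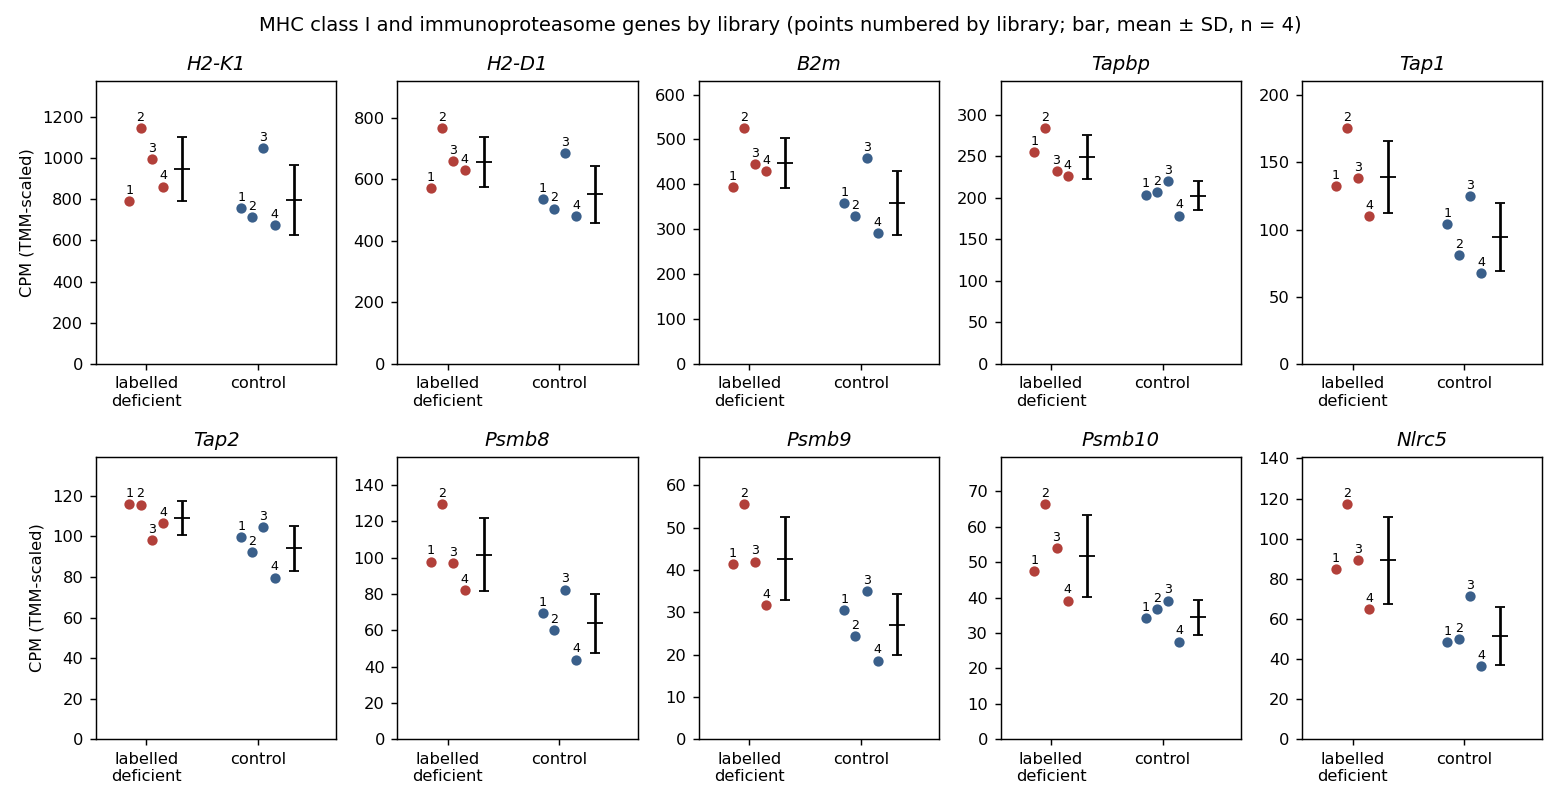
Each panel plots 1 gene as CPM after TMM scaling (y axis, from 0) in the 4 libraries labelled deficient (red, left) and the 4 controls (blue, right), with points numbered by library and the mean ± SD beside them. Tapbp alone has no overlap between groups, control library 4 is the lowest point in all 10 panels, and control library 3 is the highest control in all 10.

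The genes of the class I molecule itself had small differences beside their spread. H2-K1 had 792, 1147, 996 and 862 CPM in libraries 1 to 4 labelled deficient, against 756, 714, 1049 and 675 CPM in control libraries 1 to 4. Control library 3 lay above 3 of the 4 libraries labelled deficient, so the groups overlapped. The log2 difference was 0.25 ± 0.17 (SE), or 1.19 times (95% interval 0.910 to 1.55; edgeR adjusted p = 0.378).

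H2-D1 followed the same order of libraries in the controls, with 572, 767, 661 and 632 CPM in the libraries labelled deficient and 537, 505, 686 and 480.0 CPM in the controls. Only library 2 labelled deficient lay above every control. Its log2 difference was 0.25 ± 0.13 (edgeR adjusted p = 0.272). The ratio of H2-K1 to H2-D1 counts was a measure chosen after its values were seen. On the log2 scale it averaged 0.52 ± 0.07 in libraries labelled deficient and 0.53 ± 0.06 in controls (SD, n = 4 each). The two-sided exact permutation p was 1.0, in a test that compares group means and does not measure whether the heavy chains varied together. Over all libraries the log2 ratio ran from 0.45 to 0.61, with control library 3 highest.

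B2m, the light chain shared by all class I molecules, had 394, 525, 445 and 429.5 CPM in the libraries labelled deficient and 358, 329, 458 and 290.4 CPM in the controls. Control library 3 again lay within the other group. The log2 difference was 0.32 ± 0.15, or 1.25 times (95% interval 0.986 to 1.58; edgeR adjusted p = 0.222).

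The further class I and class I-like heavy chains were measured as a list of 16, of which 15 passed the filter. Of these, 11 had positive and 4 negative differences, with a median of 0.39, and 0 passed in edgeR. At an unadjusted p under 0.05, 3 were higher, where 13% of all genes were. H2-T24, a nonclassical gene, had 11.1, 20.9, 15.4 and 12.6 CPM in the libraries labelled deficient and 7.33, 9.65, 10.8 and 6.15 CPM in the controls. All 4 libraries labelled deficient lay above all controls, as in 7.61% of all genes, with a log2 difference of 0.82 ± 0.25 (edgeR adjusted p = 0.114). It was the only gene of the list without overlap. Of the other 2, H2-Q2 was at 0.76 ± 0.30 and H2-T10 at 0.45 ± 0.19. H2-T23, which encodes the Qa-1 molecule that presents leader peptides to natural killer cells, was at 0.35 ± 0.18. Differences of the abundant H2-Q4 and H2-Q7 were 0.33 ± 0.19 and 0.41 ± 0.27. Cd1d1 and Mr1, class I-like genes that present lipids and vitamin metabolites, were at -0.24 ± 0.23 and -0.12 ± 0.13.

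Among the genes of peptide transport and loading, Tapbp separated the groups and Tap1 had the widest difference. Tapbp, which encodes tapasin, had 255, 284, 232 and 226 CPM in the libraries labelled deficient and 204, 207, 220.4 and 179 CPM in the controls. Every library labelled deficient lay above every control, as in 7.61% of all genes. The log2 difference was 0.30 ± 0.10 (edgeR adjusted p = 0.122), and the two-sided exact permutation p was 0.0286, the smallest that 4 libraries against 4 can give.

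Tap1 had 132, 176, 138 and 110.3 CPM in the libraries labelled deficient and 104, 81.1, 125 and 67.5 CPM in the controls. Library 4 labelled deficient lay below control library 3, and the other 3 lay above every control. Its log2 difference was 0.56 ± 0.21 (edgeR adjusted p = 0.157; two-sided exact permutation p = 0.0571). Tap2, the other subunit of the transporter, had 116, 116, 98.2 and 107 CPM in the libraries labelled deficient and 99.7, 92.1, 105 and 79.7 CPM in the controls. Library 3 labelled deficient lay below control libraries 1 and 3, and the other 3 lay above every control. Its log2 difference was 0.21 ± 0.10 (edgeR adjusted p = 0.214).

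Although the products of both pair into one transporter, Tap1 varied more than Tap2. Its coefficient of variation was 19.5% in the libraries labelled deficient and 26.9% in the controls, against 7.76% and 11.6% for Tap2. The log2 ratio of Tap1 to Tap2 counts, chosen after its values were seen, averaged 0.34 ± 0.26 in the libraries labelled deficient and -0.03 ± 0.23 in the controls (SD, n = 4 each), and the difference was 0.36 ± 0.17 (SE; exact permutation p = 0.143). The ratio therefore did not separate the groups beyond the spread between libraries.

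The other genes of loading and trimming were a list of 8, of which 7 were positive and 0 passed in edgeR. At an unadjusted p under 0.05, 2 were higher, where 13% of all genes were. These were Erap1, the aminopeptidase that trims peptides in the endoplasmic reticulum (0.43 ± 0.13), and Tapbpl, the tapasin-related editor TAPBPR (0.30 ± 0.12). The general chaperones lay nearer to 0, with Calr (calreticulin) at 0.17 ± 0.17, Pdia3 (a disulfide isomerase) at 0.15 ± 0.13 and Canx (calnexin) at 0.10 ± 0.12. The list had a median of 0.16.

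**Figure D2:**
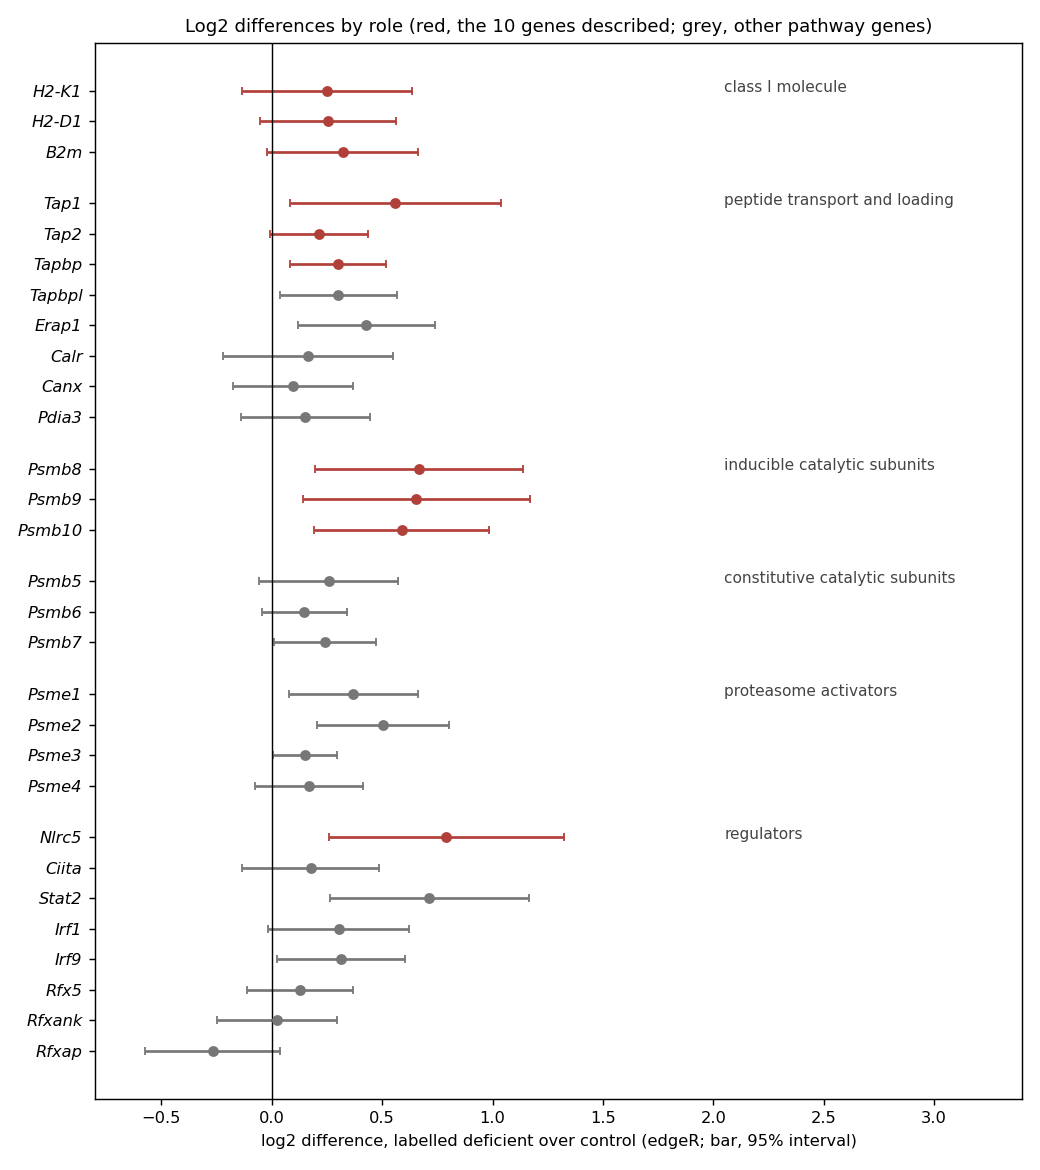
Points are edgeR log2 differences, labelled deficient over control (x axis), and bars are 95% intervals, for the 10 genes described (red) and other genes of the pathway (grey), grouped by role. Psmb8, Psmb9, Psmb10 and Nlrc5 lie between 0.59 and 0.79, right of the class I molecule genes at 0.25 to 0.32, and the intervals are wide beside these gaps.

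The 3 inducible proteasome subunits had the largest differences after Nlrc5, and each had 3 of 4 libraries labelled deficient above all controls. Psmb8 had 97.8, 129.5, 96.7 and 82.0 CPM in the libraries labelled deficient, against 69.5, 59.9, 82.4 and 43.9 CPM in the controls. Library 4 labelled deficient fell just short of control library 3, so the groups overlapped by that pair. The log2 difference was 0.67 ± 0.21, or 1.59 times (95% interval 1.15 to 2.2; edgeR adjusted p = 0.117).

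Psmb9 had 41.4, 55.6, 42.0 and 31.8 CPM in the libraries labelled deficient and 30.5, 24.3, 35.0 and 18.6 CPM in the controls. Library 4 labelled deficient lay below control library 3 here too. Its log2 difference was 0.66 ± 0.22 (edgeR adjusted p = 0.138).

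Psmb10 had 47.5, 66.4, 54.0 and 39.1 CPM in the libraries labelled deficient and 34.3, 36.8, 39.2 and 27.6 CPM in the controls. Library 4 labelled deficient and control library 3 were nearly level, with 2861 and 2860 counts. The log2 difference was 0.59 ± 0.17 (edgeR adjusted p = 0.111). For each of the 3 inducible subunits the two-sided exact permutation p was 0.0571.

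The constitutive subunits that these 3 replace were also higher on average, by less. Psmb5 differed by 0.26 ± 0.14, Psmb6 by 0.15 ± 0.08 and Psmb7 by 0.24 ± 0.10 on the log2 scale, with edgeR adjusted p of 0.273, 0.299 and 0.191. A list of 12 other genes of the proteasome core and its maturation had 12 positive differences, with a median of 0.21 and 0 passing in edgeR. At an unadjusted p under 0.05, 8 were higher, where 13% of all genes were. In 6 of these 12 the groups did not overlap, where 7.61% of all genes were higher without overlap. Among them were Psma4 (0.21 ± 0.06) and Pomp, the maturation factor (0.26 ± 0.08).

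Whether the inducible subunits differed from their constitutive partners was tested on the ratio of counts within each library, in which scaling cancels. The log2 ratio of Psmb8 to Psmb5 was 0.70, 0.91, 0.71 and 0.89 in the libraries labelled deficient and 0.61, 0.19, 0.63 and 0.02 in the controls. All 4 libraries labelled deficient lay above all controls, though control libraries 1 and 3 were close below. The difference in means was 0.44 ± 0.16 (SE), with a two-sided exact permutation p of 0.0286, the smallest possible, and of 0.0857 after adjustment over the 3 ratios.

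Psmb9 over Psmb6 had log2 ratios of -1.30, -0.98, -1.19 and -1.46 in the libraries labelled deficient and -1.41, -1.97, -1.36 and -2.28 in the controls. Library 4 labelled deficient lay among the controls. The difference was 0.52 ± 0.24 (two-sided exact permutation p = 0.0857, also 0.0857 when adjusted). Psmb10 over Psmb7 had log2 ratios of -0.72, -0.53, -0.50 and -0.84 in the libraries labelled deficient and -0.88, -1.01, -0.78 and -1.28 in the controls, a difference of 0.34 ± 0.13 (two-sided exact permutation p = 0.0571, adjusted 0.0857). All 3 ratios thus leaned toward the inducible subunit, by 1.27 to 1.43 times, and none passed after adjustment.

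**Figure D3:**
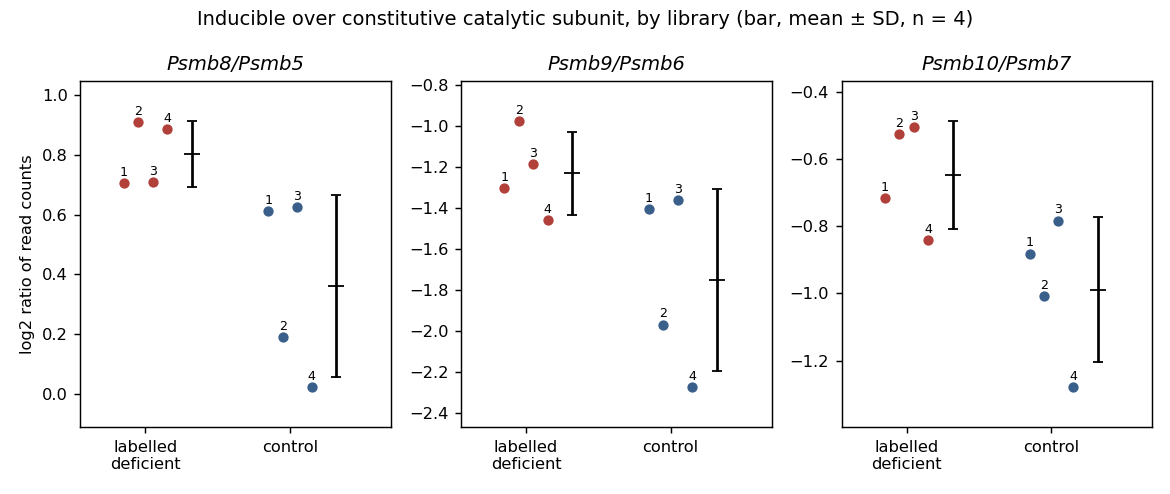
The y axis is the log2 ratio of read counts of an inducible subunit over its constitutive partner, for the 4 libraries labelled deficient (red, left) and the 4 controls (blue, right), with mean ± SD; each panel has its own scale and gene lengths are not removed. Control libraries 1 and 3 sit close to the libraries labelled deficient, and control library 4 is lowest in each panel.

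Of the proteasome activators, the pair known to be induced by interferon gamma differed most. Psme2 had 59.1, 76.7, 61.2 and 54.3 CPM in the libraries labelled deficient and 42.6, 47.6, 50.0 and 37.2 CPM in the controls. No values overlapped, as in 7.61% of all genes, and the log2 difference was 0.50 ± 0.13 (edgeR adjusted p = 0.101). Its partner Psme1 was at 0.37 ± 0.13, while Psme3, which forms the nuclear activator, was at 0.15 ± 0.06 and Psme4 at 0.17 ± 0.11. Of the 4 activators, 4 were positive, 0 passed in edgeR and 3 were higher at an unadjusted p under 0.05, where 13% of all genes were.

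Nlrc5 had the largest difference of the 10 genes. It had 85.0, 117, 89.5 and 64.9 CPM in the libraries labelled deficient, against 48.5, 50.1, 71.4 and 36.4 CPM in the controls. Control library 3 lay above library 4 labelled deficient and below the other 3. The log2 difference was 0.79 ± 0.23, or 1.73 times (95% interval 1.20 to 2.50; edgeR adjusted p = 0.111, with an exact permutation p of 0.0571). In DESeq2 its adjusted p was 0.0161, and over all alternatives run it ranged from 0.00115 to 0.298.

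Nlrc5 was also set against the heavy chain gene it is known to activate. The log2 ratio of Nlrc5 to H2-K1 counts, chosen after its values were seen, was -3.22, -3.29, -3.48 and -3.73 in the libraries labelled deficient and -3.97, -3.83, -3.88 and -4.21 in the controls. All 4 libraries labelled deficient lay above all controls. The difference was 0.54 ± 0.14 (SE; two-sided exact permutation p = 0.0286, or 0.0714 adjusted over 5 ratios chosen in this way). Psmb8 over H2-K1 gave a difference of 0.43 ± 0.14 with the same p-values. The differences of Nlrc5, Psmb8 and H2-K1, at 0.79, 0.67 and 0.25, were known, so a gap was built into both choices. The adjustment does not cover the other pairs that could have been chosen.

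The regulators known to act on class I genes were a list of 16, of which 11 were positive and 0 passed in edgeR. At an unadjusted p under 0.05, 3 were higher, where 13% of all genes were, and 1 was lower. Stat2, a signal carrier of the type I interferon receptor, had 190.0, 271.9, 203 and 145.6 CPM in the libraries labelled deficient and 141, 112.9, 142 and 99.0 CPM in the controls. The groups did not overlap, as in 7.61% of all genes, and the log2 difference was 0.71 ± 0.20 (edgeR adjusted p = 0.104). Irf9, which binds STAT2 in one complex, was at 0.31 ± 0.13, and Irf1 at 0.30 ± 0.14. The RFX subunits, which recruit NLRC5 to class I promoters, lay on both sides of 0, with Rfx5 at 0.13 ± 0.11, Rfxank at 0.02 ± 0.12 and Rfxap at -0.27 ± 0.13. The 1 lower gene was Rela, a subunit of NF-kB, at -0.11 ± 0.05, where 11.8% of all genes were lower at that threshold.

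Of the interferon genes, Ifng and Ifne passed the filter. Ifng, the gamma interferon, had 69, 77, 42 and 41 counts in the libraries labelled deficient and 21, 18, 31 and 7 counts in the controls, with no overlap, as in 7.61% of all genes. Its log2 difference was 1.60 ± 0.44 (edgeR adjusted p = 0.104). Ifne, an interferon of the reproductive tract epithelium, had 2.00, 12.6, 13.2 and 3.30 CPM in the libraries labelled deficient and 1.23, 11.8, 5.49 and 8.71 CPM in the controls. Its groups overlapped widely, with a log2 difference of 0.19 ± 0.77. Socs1, a feedback inhibitor of this signalling, had 12.4, 16.0, 13.9 and 15.2 CPM in the libraries labelled deficient and 8.35, 9.74, 9.43 and 9.56 CPM in the controls, a difference of 0.63 ± 0.11 (edgeR adjusted p = 0.0906). Of the receptor chains, Ifngr2 had 73.2, 135.8, 107.8 and 80.9 CPM in the libraries labelled deficient and 73.1, 77.5, 80.05 and 69.4 CPM in the controls, with library 1 labelled deficient among the controls and a log2 difference of 0.41 ± 0.18 (edgeR adjusted p = 0.211). The other chains were Ifngr1 at 0.12 ± 0.12, Ifnar1 at -0.03 ± 0.06 and Ifnar2 at 0.09 ± 0.05. The kinase gene Jak2 was at 0.24 ± 0.10. Of the 10 tested ligands, receptors and kinases, 8 were positive and 0 passed in edgeR. At an unadjusted p under 0.05, 3 were higher, where 13% of all genes were.

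The 10 genes also varied together from library to library within each group. Centred on each gene's mean over the 8 libraries, the mean log2 level of the 10 was 0.16, 0.53, 0.23 and 0.01 in libraries 1 to 4 labelled deficient and -0.18, -0.29, 0.10 and -0.57 in control libraries 1 to 4. Library 2 labelled deficient was the highest library for 9 of the 10 genes, Tap2 being the exception, and control library 4 the lowest for all 10. Control library 3 was the highest control for all 10, and library 4 labelled deficient the lowest of its group for 6. The distance between control libraries 3 and 4 therefore exceeded the difference between the group means.

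**Figure D4:**
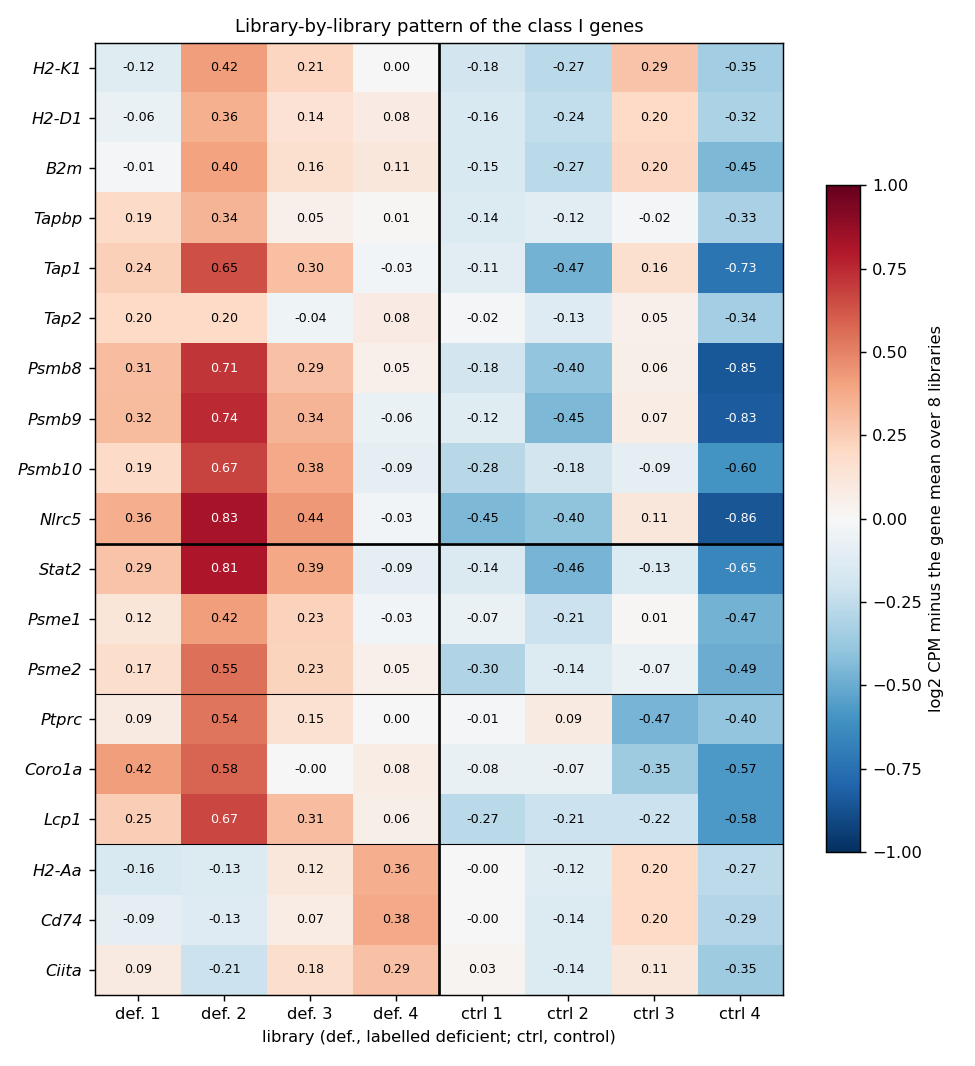
Cells give log2 CPM minus the gene's mean over the 8 libraries for the 10 genes described (top block) and for interferon signal and activator genes, leukocyte genes and class II genes (lower blocks). In library 4 labelled deficient H2-Aa is at 0.36 while Nlrc5 is at -0.03, and in control library 4 both are low, at -0.27 and -0.86; the 3 leukocyte genes drawn are not the whole marker list.

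By a fixed measure of likeness, the 6 other genes whose library pattern was nearest to the mean of the 10 were Uba7, Adar, Psme1, Pdlim1, Mov10 and Psme2. The measure was the root mean square gap in centred log2 CPM over the 8 libraries, among 15234 genes with at least 1 CPM on average. The gaps ran from 0.07 for Uba7, which encodes the activating enzyme for ISG15, to 0.10 for Psme2, and gaps of the 10 genes themselves to their mean ran from 0.10 for B2m to 0.21 for Nlrc5. Adar, an RNA-editing enzyme, and Mov10, an RNA helicase, were at 0.44 ± 0.14 and 0.43 ± 0.12. Neither had overlap between groups, as in 7.61% of all genes. The likeness measure takes in the difference between groups, so such differences were built into the choice of these genes and are no separate result.

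Of 8 class II presentation genes tested, 6 were positive and 2 negative, with a median of 0.10, and 0 were past an unadjusted p of 0.05. H2-Aa had 255, 259, 307 and 365 CPM in the libraries labelled deficient and 283, 261, 325 and 236 CPM in the controls. Library 4 labelled deficient was the highest here but the lowest of its group for Nlrc5, Tap1, Tapbp, Psmb8, Psmb9 and Psmb10. Library 1 labelled deficient was the lowest of its group here, as it was for H2-K1, H2-D1 and B2m. The controls stood in the same order as for H2-K1 (library 3 highest, then 1, 2 and 4). Ciita, the class II activator related to Nlrc5, was at 0.18 ± 0.14. The log2 ratio of Nlrc5 to Ciita averaged 1.24 ± 0.56 in libraries labelled deficient and 0.62 ± 0.23 in controls (SD, n = 4 each), and the difference of 0.62 did not pass (two-sided exact permutation p = 0.0857, or 0.143 adjusted over the 5 ratios chosen after seeing values).

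Interferon-stimulated genes outside antigen presentation were set beside the 10 genes. Of 16 type I interferon-stimulated genes, 15 were positive with a median of 0.99, and 0 passed in edgeR. At an unadjusted p under 0.05, 12 were higher, where 13% of all genes were. The groups overlapped in all but 1 of the 16. The summed level in library 4 labelled deficient was 929 CPM, below control libraries 1 and 3, at 985 and 1116 CPM. Zbp1, a nucleic acid sensor, had 57.5, 131, 75.0 and 28.8 CPM in the libraries labelled deficient and 26.0, 19.5, 29.4 and 10.3 CPM in the controls. The order of libraries was close to that of Nlrc5, with library 2 labelled deficient highest and control library 4 lowest. Mx1, Mx2 and Usp18, an antiviral pair and a feedback protease, were at 2.19 ± 0.66, 0.97 ± 0.28 and 0.84 ± 0.26. In each, library 4 labelled deficient lay below the highest control. Mx1 had 26.5, 132.7, 72.2 and 14.1 CPM in the libraries labelled deficient and 16.7, 15.8, 14.3 and 7.09 CPM in the controls. Of 12 interferon gamma-stimulated genes, 11 were positive with a median of 0.35, 0 passed in edgeR and 3 were higher at an unadjusted p under 0.05. These were the GTPase genes Irgm1 (0.58 ± 0.18), Igtp (0.57 ± 0.18) and Irgm2 (0.57 ± 0.20).

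Markers shared by leukocytes, and most markers of macrophages, T and NK cells and B cells, were also measured higher in the libraries labelled deficient. Dendritic cell markers, given below, were negative in 6 of 6. All 8 markers shared by leukocytes were positive, though 0 passed in edgeR. The groups did not overlap in 7 of them, as in 7.61% of all genes. Their summed level ran from 737 to 1028 CPM in the libraries labelled deficient and from 481 to 652 CPM in the controls. Macrophage markers were positive in 8 of 8, with sums of 781 to 1091 CPM against 562 to 754 CPM in the controls. T and NK cell markers were positive in 9 of 9, with sums of 190.5 to 369.9 CPM against 114 to 199.7 CPM in the controls. B cell markers were positive in 4 of 5, with sums of 18.0 to 29.5 CPM against 13.1 to 16.8 CPM in the controls. The groups did not overlap in 6 macrophage, 2 T and NK cell and 1 B cell markers, and the T and NK cell sums overlapped. DESeq2 called 7, 6, 3 and 2 markers of these 4 lists higher, where 7.43% of all genes were called higher. No marker of these lists was at 0 in any library. Control library 3, the highest control for all 10 class I genes, had a summed leukocyte level of 561.4 CPM against 633.8, 651.7 and 480.6 CPM in control libraries 1, 2 and 4. Its macrophage sum of 753.7 CPM was the highest of the controls, which had 575.4, 667.3 and 561.8 CPM in libraries 1, 2 and 4. The part of leukocytes in the class I differences was not tested, and in whole uterus more cells of a type and more RNA per cell cannot be told apart.

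Markers of dendritic cells and of other tissue parts were measured in the same way. Dendritic cell markers were negative in 6 of 6, with sums of 68.5 to 91.3 CPM in the libraries labelled deficient and 78.5 to 109.7 CPM in the controls. Epithelial markers were positive in 6 of 8, with sums of 1085, 2744, 2025 and 1216 CPM in libraries 1 to 4 labelled deficient and 1163 to 1280 CPM in the controls. Smooth muscle markers were negative in 8 of 8, with sums of 4103 to 4796 CPM against 4148 to 6195 CPM in the controls, and Myh11 at -0.32 ± 0.14. Endothelial sums were 658 to 1307 CPM against 987 to 1193 CPM in the controls, with 2 of 7 markers positive. Stromal sums were 7386 to 8749 CPM against 5868 to 7349 CPM in the controls and did not overlap, although 3 of 7 markers were positive and 4 negative, with a median of -0.05. The collagen genes Col1a1 (0.67 ± 0.21) and Col3a1 (0.33 ± 0.11) were the 2 higher at an unadjusted p under 0.05, where 13% of all genes were. Whether any of these took part in the class I values was not tested.

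Libraries 2 and 3 labelled deficient stand apart in the summed level of epithelial markers, at 2744 and 2025 CPM. Krt18, Cldn4 and Foxa2 of that list did not follow this. The same libraries had the lowest endothelial sums, at 658 and 763 CPM. Without library 2 alone, Nlrc5 was at 0.63 and Tap1 at 0.43. Without library 3 alone they were at 0.78 and 0.56, against 0.79 and 0.56 with all libraries. Leaving out both lowered the differences of the members except Tap2, which was at 0.21 with all libraries. Without both, all 10 log2 differences were still positive, from 0.06 ± 0.18 for H2-K1 to 0.54 ± 0.25 for Nlrc5. H2-D1 had 0.13 ± 0.15, B2m 0.20 ± 0.17, Psmb8 had 0.50 ± 0.23, Psmb9 0.44 ± 0.25, Psmb10 0.34 ± 0.15 and Tap1 0.37 ± 0.24, Tap2 0.25 ± 0.11 and Tapbp 0.26 ± 0.10. Of the subunit ratios, Psmb10 over Psmb7 then differed by 0.21, Psmb9 over Psmb6 by 0.37 and Psmb8 over Psmb5 by 0.43. Their exact permutation p were 0.267, 0.400 and 0.133, where 0.133 is the smallest that 2 libraries against 4 can give, so none could pass. Leaving out single libraries moved a log2 difference by over 1.5 times for 2 of the 10 genes. H2-K1 was at 0.15 without library 2 labelled deficient and 0.40 without control library 3, and Tap2 was at 0.13 without control library 4. Without both libraries 2 and 3 labelled deficient, 1 gene, Tapbp, was at an unadjusted p under 0.05 in edgeR, against 6 with all libraries. DESeq2 called 0 of the 10 without both. Leaving out single libraries, DESeq2 called 0 without control library 1, control library 4, or library 2 or 3 labelled deficient, 1 without control library 2, 3 without library 1 labelled deficient, 6 without library 4 labelled deficient and 8 without control library 3.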

How the data were processed

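RNA sequencing counts were used from 8 uterine libraries, 4 labelled myometrial PGR deficiency and 4 control. Per the submitters' processing notes, HISAT2 2.2.1, HTSeq 0.10.0 and the build mm10 were used; other settings were not stated there. The authors deposited whole-number counts per gene symbol with no normalization.

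Columns were matched to sample titles, and no pair of libraries agreed within sampling noise. Genes were filtered with filterByExpr and scaled with TMM, and edgeR 4.0.16 (glmQLFit, glmQLFTest, R 4.3.3) was fitted on group alone over 17629 genes, with Benjamini-Hochberg adjustment and a threshold of 0.05. SE came from the difference and its F value, and centred log2 CPM used a prior count of 2. Ratios of counts were compared by two-sided exact permutation tests (scipy 1.17.1). Alternatives were other scalings and filters, DESeq2 1.42.0, limma-voom (limma 3.58.1), robust=TRUE, legacy=FALSE, a replicate block and left-out libraries. The scripts were tested on simulated counts.

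The 10 genes, the lists and the left-out pair of libraries were chosen with earlier results of these data known, and DESeq2 with left-out libraries and 5 ratios were added after seeing the values. Genes named are the 10, Pgr, constitutive subunits, activators, and up to 4 per list with the smallest p or by likeness. Others, such as H2-T23, Mr1, Irf1, Rfx5, Calr, Ptprc and Myh11, were chosen after their values were seen. All 195 list symbols matched the table, 1 (Adgre1, as Emr1) by an older symbol. No paired libraries are stated. Promoter motifs were not analysed here, and 1 gene of the regulator list is counted but not reported here by name.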

Additional observations from a re-analysis of the deposited data

Results flagged for a closer look

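In 3 of 132 groups of 4 libraries checked, 1 library lay far from the other 3 by Dixon's ratio of gap to range, where chance flags about 5% of groups. For the log2 ratio of H2-K1 to H2-D1 the ratio was 0.942, with control library 3 at 0.61 and the other controls between 0.49 and 0.50. For Psme3 it was 0.876, with library 2 labelled deficient at 139 CPM and the other 3 of its group between 120.5 and 122.7 CPM. For H2-Oa, a class II modulator gene, it was 0.862, with library 4 labelled deficient at 7.85 CPM and the others of its group between 3.84 and 4.24 CPM.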

How the results depend on the processing

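All 10 log2 differences kept their positive sign under every alternative run, and 0 of the 10 were called in any edgeR or limma-voom fit. DESeq2 called 5 of the 10, and 0, 1, 3, 6 or 8 on leaving out single libraries. The genes of the 10 at an unadjusted p under 0.05 ran from 5 to 10 in edgeR on leaving out single libraries (10 without control library 3) and numbered 1 without libraries 2 and 3 labelled deficient. In DESeq2 they ran from 6 to 10, and numbered 3 without both. Over all genes, edgeR called 0, legacy=FALSE 3, limma-voom 2 and DESeq2 2488, with 0 to 2 in edgeR on leaving out single libraries. DESeq2 called 2457, 1531, 1703 and 3961 genes without libraries 1 to 4 labelled deficient, 1328, 2059, 1751 and 927 without control libraries 1 to 4, and 1461 without libraries 2 and 3 labelled deficient. In edgeR, 2896 to 5471 genes had an unadjusted p under 0.05. The cause of these shifts was not tested. The replicate block called 23 genes and none of the 10, but same-numbered libraries share only a number: deviations of the 4 pairs correlated at 0.20, 0.24, -0.01 and -0.08, and libraries 3 and 4 labelled deficient correlated best with other numbers. On leaving out single libraries the log2 differences ran from 0.15 to 0.40 for H2-K1, 0.13 to 0.26 for Tap2 and 0.63 to 0.98 for Nlrc5. The subunit ratios kept their direction throughout, at 0.33 to 0.53 for Psmb8 over Psmb5, 0.35 to 0.65 for Psmb9 over Psmb6 and 0.24 to 0.41 for Psmb10 over Psmb7 in the same way, where 3 libraries against 4 cannot reach p under 0.05, and at 0.43, 0.37 and 0.21 without libraries 2 and 3 labelled deficient. Depth did not limit the 10 genes, whose lowest value was 1320 counts, for Psmb9 in control library 4.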

Other observations

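The receptors that read class I molecules were a list of 12, of which 11 passed the filter. Of these, 10 had positive differences with a median of 0.59, and 0 passed in edgeR. At an unadjusted p under 0.05, 1 was higher, where 13% of all genes were. DESeq2 called the same 1 higher, where it called 7.43% of all genes higher. That gene was Pirb, an inhibitory receptor of myeloid and B cells that binds class I, with 40.0, 51.7, 49.8 and 42.4 CPM in the libraries labelled deficient and 27.4, 34.3, 30.8 and 26.0 CPM in the controls. The groups did not overlap, as in 7.61% of all genes, and the log2 difference was 0.63 ± 0.12 (edgeR adjusted p = 0.0906). The Ly49 receptors of natural killer cells were not uniform. Klra1 was at 0.84 ± 0.38, Klra7 at 0.57 ± 0.29 and Klra9 at 0.66 ± 0.29, while Klra8 was at -0.05 ± 0.23, and reads could be shared among these near-identical genes. Cd8a had 4.77, 2.48, 0.922 and 3.37 CPM in the libraries labelled deficient and 2.15, 0.635, 1.78 and 0.381 CPM in the controls. Its log2 difference of 1.22 ± 0.64 did not pass (edgeR adjusted p = 0.270).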
